A study of Homo sapiens with 8 samples.

Results

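The genes described here are the transcription factor ATF4, factors that work with it or oppose it, and genes of amino acid uptake and synthesis that are known as its targets. A list of 35 genes was used, matched by current or older symbol to the probe sets of the array, and aminoacyl-tRNA synthetases were left out of it. All 35 had at least 1 probe set, among 19775 genes with a probe set in all. Of these 35 genes, 34 were bright enough to be tested, among 11865 tested genes, and SLC6A9, a glycine transporter gene, was too dim.

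ATF4 is the effector of the integrated stress response. In that response, kinases that sense missing amino acids, unfolded protein, double-stranded RNA or missing haem phosphorylate the initiation factor eIF2. Most translation then slows, while the ATF4 message is translated more, through short reading frames in its leader. ATF4 protein pairs with C/EBP factors and switches on genes for amino acid import, serine and asparagine synthesis, folate metabolism and glutathione metabolism. Plasma cells and myeloma cells make and secrete much protein, and their use of amino acids and their load of unfolded protein are high. The arrays measured transcripts, so neither the translation of ATF4 nor its protein was read.

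The data came from 8 HG-U133 Plus 2.0 arrays, with 2 in each of 4 groups. MM1S and OPM1 are established human lines of multiple myeloma, in which malignant plasma cells fill the marrow. For each line there were untreated controls and cells treated in culture with Zalypsis at 5 nM, a DNA-binding compound of marine origin, and harvested at a point when 15 to 20% were dying. The labels name no vehicle for the controls and no length of treatment, and nothing in them says whether a group's arrays stem from different cultures. The p-values therefore reflect array-to-array spread, which may be technical, and the precision is limited by the number of arrays. A signal is the deposited linear value of a gene's brightest probe set, and a log2 change is a difference of group means of log2(signal + 32), which understates the change of dim genes. Errors of log2 changes are standard errors (SE). A gene rose or fell where limma's adjusted p, over all 11865 genes, was under 0.05.

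Within a group, the arrays' correlation over the tested genes was 0.990 to 0.995. OPM1 control 1 stood apart in its 3'/5' signal ratios, 2.26 for GAPDH (0.963 to 1.06 elsewhere) and 5.80 for ACTB (1.78 to 2.62 elsewhere). The poly-A controls, bacterial transcripts added before labelling, rose in geometric mean within the OPM1 arrays, from 299.7 and 448 without treatment to 1862 and 1349 with it. On the MM1S arrays it was 19.7 to 25.7, near the median signal of 23.0 to 24.8. The summed signal of 10 plasma cell markers was 35235 to 37483 in MM1S controls and 5754 to 6466 in OPM1 controls, where SDC1, a defining surface antigen of plasma cells, lay at 6.56 and 12.9. That of 9 B-cell markers was 347 to 441 in MM1S controls and 11352 to 13076 in OPM1 controls, falling to 4582 to 5640 under Zalypsis, with PAX5 going from 2883 and 3556 to 64.8 and 37.0. CD79A, the brightest of them after treatment, did not fall, at 3123 and 3435 before and 4217 and 3243 after. Of the 14 markers of T cells, myeloid cells and stroma with a probe set, 3 were bright enough to be tested. The summed signal of the 5 myeloid markers was 87.8 to 93.8 in OPM1 controls and 151 to 210.4 after Zalypsis. That rise was mainly CD14, which went from 5.82 and 4.89 to 123 and 74.4. Mean signals of LYZ (8.96, then 5.69), S100A8 (39.8, then 35.6) and CSF1R (21.0, then 20.9) did not rise, and MPO went from 15.6 to 20.2. The part of the CD14 rise in the results on OPM1-labelled cells was not tested. Other genes of the plasma cell list went the other way or stayed bright, with mean signals in OPM1 and MM1S controls of 489 and 54.2 for CD38, 426 and 93.6 for CD27, 1735 and 4499 for XBP1, and 2031 and 10641 for JCHAIN. Of that list only CD38 and CD27 were higher than in MM1S controls, and the other genes were lower, XBP1 and JCHAIN included. Means in OPM1 and MM1S controls were 238 and 5581 for TNFRSF17, 98.6 and 2871 for PRDM1, and 318 and 4383 for IRF4. All 9 B-cell markers were higher in OPM1 controls, with VPREB1 at 1352 against 6.92. The second line is called OPM1-labelled here, and its identity was not tested. Fewer cells of a type and less RNA per cell cannot be told apart in such bulk samples.

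ATF4 and its C/EBP partners bind a composite element in their target genes, and the sequences below show where its letters occur near the starts of members. The motif TGATGNAAN was searched on both strands of the window from 250 bases before to 50 after each start in RefSeq's table of build GRCh38.p14. Of the 35 genes, 28 had a window there, and 4 of them (14.3%) held the motif, against 3.67% of 27305 windows of all genes. The narrower form TGATGCAAN, whose matches are also counted under the first, was in 1 of the 28 (3.57%, against 0.923% of all windows). The ASNS match lies at -68 to -60 from the start, and these letters are known in that gene as part of its nutrient-sensing response element. The CHAC1 match lies at -210 to -202 on the opposite strand. Those of SLC7A1 and SLC3A2 lie just after the start, at bases 8 to 16 and 37 to 45 of the transcript. The starts used for ASNS and SLC3A2 lie inside their RefSeq gene spans (chr7:97851677-97928441 and chr11:62856109-62888860), which begin further upstream. Capitals mark the match, each sequence runs in the direction of its gene, and a match is a description of letters and not a bound site.
ASNS, chr7:97872438-97872506, minus strand: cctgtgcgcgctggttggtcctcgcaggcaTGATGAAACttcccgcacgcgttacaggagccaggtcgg
CHAC1, chr15:40953231-40953299, plus strand: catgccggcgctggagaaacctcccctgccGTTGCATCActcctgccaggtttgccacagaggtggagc
SLC7A1, chr13:29595668-29595686, minus strand: actgcTGATGAAACctggc
SLC3A2, chr11:62881730-62881748, plus strand: gactcCTTACATCAgctcc
These 4 genes did not move alike. As given below, CHAC1 and SLC7A1 were lower under Zalypsis in both lines, ASNS was lower in MM1S, and SLC3A2 was higher in OPM1-labelled cells as deposited but lower after scaling by the poly-A controls.

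**Figure D1:**
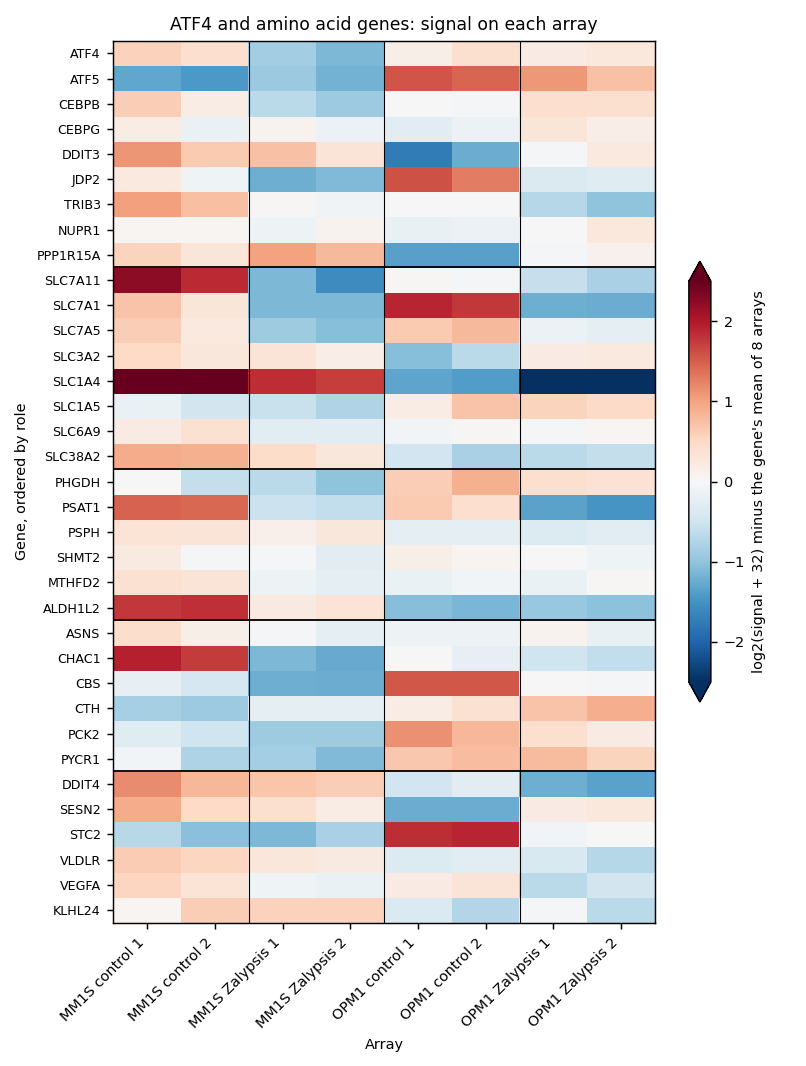
Signal of the 35 genes (rows, grouped by role) on the 8 arrays (columns), as log2(signal + 32) minus the gene's mean of 8 arrays; red is above and blue below that mean, and the colours end at the limits of the scale. MM1S control arrays were high for SLC7A11, CHAC1, ALDH1L2 and SLC1A4, and the treated MM1S arrays were lower for each of them.

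In MM1S, ATF4 itself fell under Zalypsis, and so did 19 other genes of the list. ATF4 fell 2.85-fold, CHAC1 and SLC7A11 fell to signals near or below the dimmest tested, and PSAT1, SLC7A1, ALDH1L2, SLC7A5 and CEBPB fell between 2.35-fold and 4.21-fold by the ratio of mean signals. Of the 34 tested genes 20 fell and 2 rose, 22 in all (15 to 22 fell and 1 to 2 rose with any 1 array left out), while 21.1% of all tested genes fell and 16.4% rose, 37.6% in all. By the study's rule of a change over 2-fold, 11 fell and 0 rose, against 9.90% and 3.77% of all tested genes. Their median log2 change was -0.51, against 0.02 for all tested genes. The treated arrays lay below both control arrays for 25 genes and above them for 3, which was the case for 32.7% and 33.7% of all tested genes.

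Among the regulators, the ATF4 signal was 5280 and 4698 in MM1S controls and 1915 and 1590 after Zalypsis, a log2 change of -1.50 ± 0.13 (SE, limma adjusted p = 3.0e-09). CEBPB, a C/EBP factor that pairs with ATF4, went from 1543 and 1134 to 617 and 520.4 (log2 -1.18 ± 0.16, limma adjusted p = 3.5e-06). Treated and control arrays of both genes were well apart. JDP2, a repressor of the AP-1 family, went from 114 and 82.0 to 20.7 and 25 (log2 -1.23 ± 0.14). TRIB3, a pseudokinase that ATF4 and DDIT3 induce and that restrains them in return, went from 1557 and 1270 to 759 and 695 (log2 -0.92 ± 0.16). In the opposite direction, PPP1R15A, which encodes the GADD34 subunit of the phosphatase that reverses eIF2 phosphorylation, rose from 369 and 303 to 513 and 447 (log2 0.48 ± 0.14, limma adjusted p = 0.0111). Its call was lost without MM1S control 2 (log2 0.35) and without MM1S Zalypsis 1 (0.39).

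DDIT3, the C/EBP-homologous factor CHOP, was 324 and 229 in MM1S controls and 242 and 175 in treated cells, so the groups overlapped and no change was called (log2 -0.36 ± 0.18, limma adjusted p = 0.124). It was called lower without MM1S control 2 (log2 -0.58) or MM1S Zalypsis 1 (-0.56). ATF5, a relative of ATF4 (log2 0.30), the C/EBP partner CEBPG (-0.04) and the small chromatin protein gene NUPR1 (-0.06) were not called, and ATF5 was called after quantile normalization (0.35). A second probe set of CEBPG went from 417 and 367 to 519 and 493 (log2 0.35).

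Among the transporters, SLC7A11, the cystine and glutamate exchanger that feeds glutathione synthesis, had a signal of 595 and 453 in MM1S controls and 28.6 and 12.4 after treatment (log2 -3.41 ± 0.15, limma adjusted p = 1.7e-13). The treated values lay near or below 27.3, the dimmest mean signal that was tested, so the size of the fall is a rough one. A second probe set of it, which reads no other transcript by its name, changed by -3.09. SLC7A1, the cationic amino acid transporter CAT-1, went from 1269 and 947 to 329 and 332 (log2 -1.64 ± 0.16). SLC7A5, the light chain LAT1 that takes up large neutral amino acids, went from 2270 and 1750 to 787 and 696 (log2 -1.39 ± 0.15). Its heavy chain partner SLC3A2, which also serves SLC7A11, was 1744 and 1499 before and 1533 and 1374 after, and was not called (log2 -0.15 ± 0.15). The neutral amino acid transporters SLC1A4 (log2 -1.0) and SLC38A2 (-0.54) fell too, while the glutamine carrier SLC1A5 was not called (-0.35). SLC6A9, too dim for the test, was listed at 20.4 and 27.4 in controls and at 5.92 and 5.81 in treated cells.

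Serine is made from a glycolytic intermediate by PHGDH, PSAT1 and PSPH in turn, and its carbon enters the folate pool through SHMT2, MTHFD2 and ALDH1L2 in mitochondria. PSAT1 fell most clearly, from 3093 and 3000 to 745 and 702 (log2 -2.03 ± 0.15, limma adjusted p = 2.6e-10). ALDH1L2 went from 222 and 236 to 55.3 and 63.1 (log2 -1.52 ± 0.13), and MTHFD2 from 4279 and 4083 to 2986 and 2793 (log2 -0.53 ± 0.12, limma adjusted p = 0.00106). For each of these genes the treated arrays lay below both controls. PHGDH went from 1001 and 645 to 607 and 476, a fall (log2 -0.55, limma adjusted p = 0.0196) that was not called without MM1S control 1 (-0.25) or MM1S Zalypsis 2 (-0.39) and was -0.86 without MM1S control 2. PSPH (log2 -0.13) and SHMT2 (-0.26) were not called by their brightest probe sets, which carry a mark for shared sequence. When such probe sets were left out, both were called lower, PSPH by -1.78 and SHMT2 by -0.63.

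Of the other enzymes, CHAC1, which degrades glutathione, went from 363 and 311 to 14.9 and 10.8 (log2 -3.04 ± 0.13, limma adjusted p = 9.0e-14). Here too the treated values lay below 27.3. CBS, which begins the transfer of sulphur from homocysteine to cysteine, fell from 168 and 142 to 67.5 and 66.4 (log2 -0.92 ± 0.13). The reference build GRCh38.p14 lists a near-identical copy of CBS, from which these probe sets may not tell it apart. Whether that entry is a separate gene was not tested. CTH, which completes that pathway, moved the opposite way, from 62.9 and 57.6 to 110.5 and 112 (log2 0.64 ± 0.13, limma adjusted p = 4.5e-04). Its second probe set, which carries a mark for shared sequence, changed by 0.19. ASNS, the asparagine synthetase, went from 1869 and 1525 to 1348 and 1169 (log2 -0.42, limma adjusted p = 0.0325). PCK2, the mitochondrial PEP carboxykinase (log2 -0.48), and PYCR1, of proline synthesis (-0.56), fell as well. The call of ASNS was lost without MM1S control 1 (log2 -0.27), MM1S Zalypsis 1 (-0.52) or MM1S Zalypsis 2 (-0.32), and that of PCK2 without the same arrays (-0.39, -0.48 and -0.49). PYCR1 was not called without MM1S control 1 (log2 -0.21) or MM1S Zalypsis 2 (-0.43), and was -0.91 without MM1S control 2. PCK2 was not called after quantile normalization (log2 -0.33). ASNS, PYCR1, PHGDH and SESN2, the latter described below, were not called when dim genes were tested too, at the same changes.

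Among the growth, secretion and stress genes, the angiogenic factor VEGFA fell from 692 and 606 to 433 and 412 (log2 -0.58 ± 0.15, limma adjusted p = 0.00414), a call lost when its 4 probe sets were averaged (-0.28). SESN2, a leucine sensor that restrains mTORC1, went from 1121 and 819 to 768 and 653 (log2 -0.42, limma adjusted p = 0.0465). That call was lost without MM1S control 1 (log2 -0.20), MM1S Zalypsis 1 (-0.53) or MM1S Zalypsis 2 (-0.31), and the change was -0.64 without MM1S control 2. DDIT4, another restraint on mTORC1, was not called (log2 -0.36), but was without MM1S control 2 (-0.54). The lipoprotein receptor gene VLDLR (log2 -0.33), KLHL24, an adaptor of a ubiquitin ligase (0.24), and the secreted glycoprotein gene STC2 (-0.09) were not called.

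**Figure D2:**
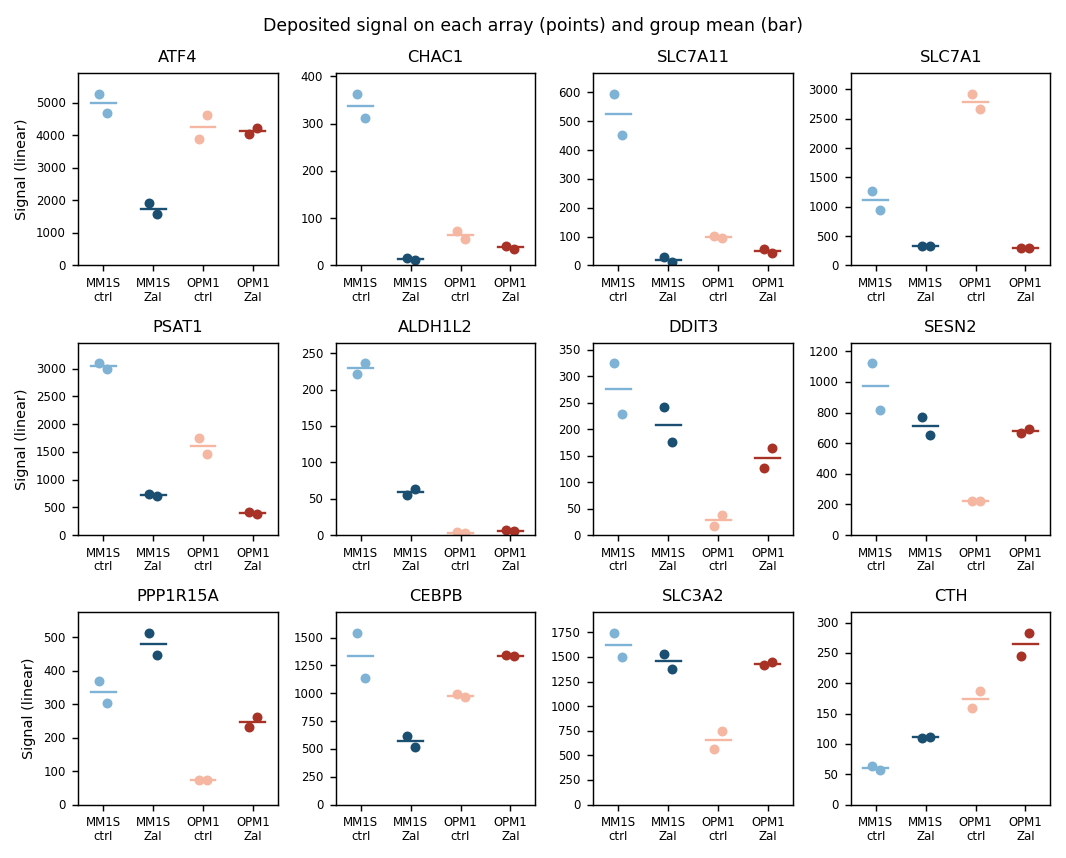
Deposited linear signal (vertical axes, from 0) of 12 chosen genes on each array; points are arrays and bars are means of the 2 arrays of a group (ctrl, control; Zal, Zalypsis). ATF4 went from 5280 and 4698 to 1915 and 1590 in MM1S and was 3888, 4621, 4046 and 4232 in OPM1-labelled cells, where DDIT3, SESN2 and PPP1R15A were higher on the treated arrays as deposited, and were not called with the poly-A scaling.

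In OPM1-labelled cells the ATF4 signal did not differ between the groups as deposited, and the genes went both ways. As deposited, DDIT3, SESN2, PPP1R15A and SLC3A2 rose between 2.18-fold and 5.23-fold by the ratio of mean signals, with DDIT3 starting from signals about the dimmest tested, so that its fold is a rough one. With a scaling by the poly-A controls SLC3A2 was lower (log2 -0.94) and the others were not called. SLC7A1, SLC1A4, STC2, JDP2, PSAT1 and CBS fell between 3.28-fold and 9.19-fold. Of the 34 genes 14 fell and 7 rose, 21 in all, while 38.5% of all tested genes fell and 25.4% rose, 63.9% in all. By the rule of over 2-fold 7 fell and 4 rose, against 26.7% and 11.2% of all. Treated arrays lay below both controls for 18 genes and above them for 9, which was the case for 45.4% and 34.6% of all tested genes. The median log2 change was -0.11 against -0.07 for all. The share that fell or rose was thus near that of all genes. Without OPM1 control 1, the array with the high 3' to 5' ratios, 14 fell and 6 rose. Scaled by the poly-A controls, 30 fell and 0 rose (limma), against 93.0% and 0.523% of all tested genes, and the medians moved to -2.08 for these genes and -1.70 for all tested genes. The other 4 were not called in that scaling, DDIT3 (log2 0.25), ALDH1L2 (-0.16), PPP1R15A (-0.31) and SESN2 (-0.47).

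Among the regulators, ATF4 was 3888 and 4621 in OPM1 controls and 4046 and 4232 in treated cells (log2 -0.03 ± 0.13, limma adjusted p = 0.831), and the groups overlapped. With the poly-A scaling its change was -2.13. DDIT3 rose from 17.6 and 38.1 to 127 and 164 (log2 1.58 ± 0.18, limma adjusted p = 6.7e-08), the largest rise of the list as deposited. PPP1R15A rose from 74.8 and 73.8 to 232 and 262 (log2 1.39 ± 0.14, limma adjusted p = 1.8e-08, but -0.31 with the poly-A scaling), and its second probe set changed by 1.3 as deposited. CEBPB rose from 992 and 966 to 1347 and 1332 (log2 0.44 ± 0.16) and CEBPG from 359 and 393 to 551 and 501 (0.45 ± 0.16), and both were lower with the poly-A scaling (-1.61 and -1.52). A second probe set of CEBPG changed by 1.46 as deposited. The call of CEBPB was lost without OPM1 control 2 (log2 0.42), OPM1 Zalypsis 1 (0.43) or OPM1 Zalypsis 2 (0.45), and that of CEBPG without OPM1 control 1 (0.39) or OPM1 Zalypsis 1 (0.38).

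Other regulators fell. JDP2 went from 341 and 268 to 64.1 and 67.7 (log2 -1.77 ± 0.14, limma adjusted p = 2.7e-10) and TRIB3 from 742 and 752 to 445 and 357 (-0.85 ± 0.16). A second, shared and dimmer probe set of TRIB3 did not fall, at 52.6 and 94.6 before and 77.9 and 82.4 after (log2 0.12). ATF5, well above its MM1S signal in these cells, went from 901 and 827 to 627 and 488 (log2 -0.61 ± 0.15, limma adjusted p = 0.00140). It was not called after quantile normalization (log2 -0.30) or when its 4 probe sets were averaged (-0.25). NUPR1 was not called (log2 0.30, and 0.42 with a call without OPM1 Zalypsis 1).

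The transporters split. SLC7A1 had the deepest fall of the list, from 2926 and 2661 to 305 and 302 (log2 -3.07 ± 0.16, limma adjusted p = 2.1e-13). By this probe set, which carries a mark for shared sequence, the treated arrays of both lines ended near the same signal. An unshared probe set of SLC7A1 ended apart, at 141 and 179 in MM1S and at 41.4 and 45.9 in OPM1-labelled cells (log2 -2.31). SLC1A4 went from 151 and 140.2 to 17.8 and 16.4 (log2 -1.85 ± 0.15), while its unshared probe set lay at 26.5 and 22.1 before and 19.9 and 17.0 after, too dim in this line to show a change. SLC7A5 fell from 2346 and 2614 to 1331 and 1268 (log2 -0.91 ± 0.15) and SLC7A11 from 102 and 96.1 to 57.0 and 43.4 (-0.68 ± 0.15). Their shared partner SLC3A2 rose from 567 and 748 to 1413 and 1451 (log2 1.10 ± 0.15, limma adjusted p = 1.7e-06, but -0.94 with the poly-A scaling). SLC1A5 (log2 0.07) and SLC38A2 (0.00) were not called, and both were lower with the poly-A scaling (-2.00 and -2.06). SLC6A9 was listed at 11.6 and 14.6 in controls and at 12.0 and 15.2 in treated cells.

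PSAT1 was the serine pathway gene that fell, from 1746 and 1466 to 411 and 374 (log2 -1.95 ± 0.15, limma adjusted p = 9.8e-11). PHGDH (log2 -0.37), PSPH (-0.07), SHMT2 (-0.16) and MTHFD2 (0.06) were not called as deposited, and all 4 were lower with the poly-A scaling. PHGDH was called without OPM1 control 1 (log2 -0.51). Without shared probe sets, PSPH (log2 -1.27) and SHMT2 (-0.87) were called lower here too. ALDH1L2 lay at 4.02 and 2.18 in controls and 7.16 and 4.93 in treated cells, too dim in this line to show a change.

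Among the other enzymes, CBS fell from 648 and 653 to 202 and 195 (log2 -1.57 ± 0.13, limma adjusted p = 7.5e-10) and PCK2 from 579.9 and 455 to 334 and 286 (-0.68 ± 0.15), though PCK2 was not called after quantile normalization (-0.30). CHAC1, already dim, went from 71.9 and 57.0 to 41.2 and 35 (log2 -0.46 ± 0.13), a call lost without OPM1 control 1 (-0.35). CTH rose from 159.9 and 187 to 245 and 283 (log2 0.53 ± 0.13, limma adjusted p = 0.00120, but -1.30 with the poly-A scaling). Its second probe set changed by 0.12 as deposited, and there the groups overlapped. ASNS was 1254 and 1262 before and 1462 and 1210 after, overlapping (log2 0.08, and -1.98 with the poly-A scaling). PYCR1 was not called as deposited (-0.05) and was lower with that scaling (-2.09).

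SESN2 rose from 225 and 223 to 668 and 693 (log2 1.48 ± 0.16, limma adjusted p = 5.0e-08, but -0.47 with the poly-A scaling), and its second probe set changed by 1.68 as deposited. STC2 fell from 225 and 235 to 36.2 and 39.1 (log2 -1.91 ± 0.15, limma adjusted p = 1.4e-10). DDIT4 fell from 227 and 267 to 124 and 111 (log2 -0.90 ± 0.15), and VEGFA from 549 and 594 to 279.9 and 334 (-0.84 ± 0.15), although no change of VEGFA was called when its 4 probe sets were averaged (-0.07). VLDLR was not called (log2 -0.25, and -0.41 with a call without OPM1 Zalypsis 1). KLHL24 was not called either (log2 0.18). Without shared probe sets it was called lower (-0.98), and without OPM1 Zalypsis 2 it was called higher (0.49).

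**Figure D3:**
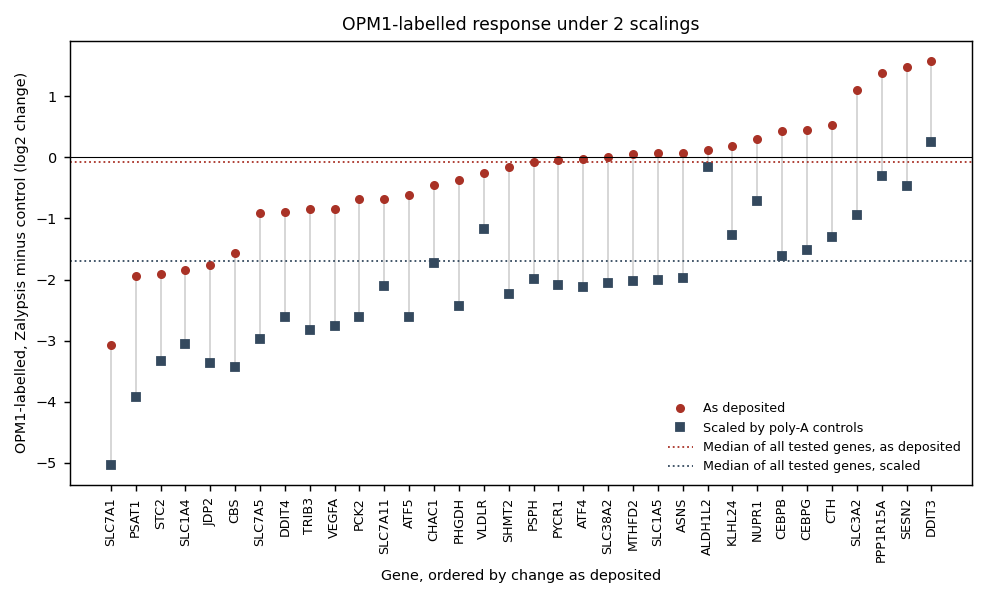
Log2 change of the 34 tested genes in OPM1-labelled cells (vertical axis), as deposited (circles) and after each OPM1 array was divided by its poly-A controls (squares), with genes ordered by the change as deposited. Dotted lines are medians of all tested genes, -0.07 and -1.70; SLC7A1 was lowest in both and DDIT3, at 1.58 and 0.25, highest in both.

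Set side by side, the responses of the lines, which share no array, had 11 of the 34 genes lower in both: CHAC1, SLC7A11, SLC7A1, SLC7A5, PSAT1, CBS, TRIB3, SLC1A4, VEGFA, PCK2 and JDP2. That is 32.4% of the list, where 17.6% of all tested genes were lower in both lines. CTH and PPP1R15A were higher in both as deposited (5.88% of the list, against 9.55% of all). A second probe set of CTH changed by 0.19 in MM1S and 0.12 in OPM1-labelled cells. CTH and PPP1R15A changed by -1.30 and -0.31 in OPM1-labelled cells with the poly-A scaling. CEBPB and SESN2 fell in MM1S and rose in OPM1-labelled cells as deposited, a pattern shown by 0.430% of all tested genes. The MM1S call of SESN2 and the OPM1 call of CEBPB were each lost without some single arrays, and in OPM1-labelled cells that scaling gave -1.61 for CEBPB, a fall, and -0.47 for SESN2, which was not called. The reverse pattern, a rise in MM1S with a fall in OPM1-labelled cells, was shown by 0 of the 34 genes and 1.85% of all. Another 7 genes were called lower in MM1S and not in OPM1-labelled cells as deposited, ATF4, ASNS, PHGDH, MTHFD2, ALDH1L2, SLC38A2 and PYCR1 (20.6% of the list, against 3.11% of all). With the poly-A scaling all of them but ALDH1L2 were called lower in OPM1-labelled cells too, by -1.98 (ASNS) to -2.43 (PHGDH). That scaling made 93.0% of all tested genes lower there. The difference between the lines was not called for ASNS, PHGDH and PYCR1 (limma adjusted p = 0.0613, 0.592 and 0.128), and ALDH1L2 was too dim in OPM1-labelled cells to fall. VEGFA was not called in either line when its probe sets were averaged, nor PCK2 after quantile normalization. A second probe set of TRIB3 changed by 0.12 in OPM1-labelled cells as deposited. Across the 34 genes the log2 changes of the lines correlated at r = 0.416 and rho = 0.502, and across all tested genes at 0.640 and 0.626. These are descriptions across genes, which share arrays and are not independent replicates.

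**Figure D4:**
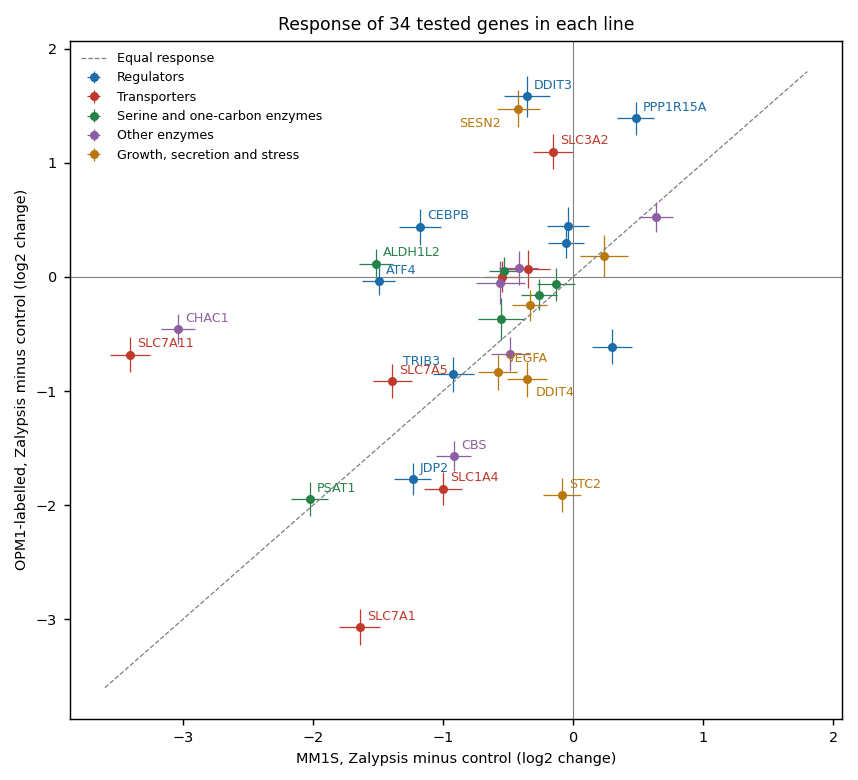
Log2 change under Zalypsis as deposited in MM1S (horizontal axis) and OPM1-labelled cells (vertical axis) of the 34 tested genes, coloured by role, with SE bars; the dashed line marks equal responses and genes over 0.8 in size in either line are named. SLC7A11 and CHAC1 lie far to the left, at -3.41 and -3.04 in MM1S, and DDIT3, SESN2, PPP1R15A and SLC3A2 lie above 1 in OPM1-labelled cells as deposited, of which SLC3A2 was lower and the others were not called with the poly-A scaling.

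The difference between the responses was tested as an interaction. Of the 34 genes 11 responded higher and 7 lower in OPM1-labelled cells than in MM1S, 18 in all, while 15.3% of all tested genes responded higher and 31.2% lower, 46.6% in all. The medians were 0.27 and -0.13. Over 2-fold, 9 responded higher and 4 lower, against 7.69% and 22.2% of all. The largest differences were those of SLC7A11 (log2 2.73 ± 0.22, limma adjusted p = 2.6e-09) and CHAC1 (2.58 ± 0.19, limma adjusted p = 6.5e-10). Mean signals of SLC7A11 went from 524 to 20.5 in MM1S and from 99.3 to 50.2 in OPM1-labelled cells. Those of CHAC1 went from 337 to 12.8 and from 64.4 to 38.1. The part of the lower starting signals in these differences was not tested. ATF4, at like signals in the untreated lines, differed by 1.46 ± 0.18 (limma adjusted p = 8.5e-07). The differences of DDIT3 (1.94 ± 0.25), SESN2 (1.90 ± 0.23), CEBPB (1.62 ± 0.23) and SLC3A2 (1.25 ± 0.22) went the same way. SLC7A1 (-1.43 ± 0.22) and STC2 (-1.82 ± 0.21) differed the other way, and STC2 lay at 12.0 and 2.63 in MM1S controls. With the poly-A scaling of the OPM1 arrays 3 genes responded higher and 25 lower, against 0.952% and 91.9% of all tested genes. The MM1S arrays, where these controls lay near the median signal, were left as deposited. Such a difference sets a scaled response against an unscaled one, and it moved down for nearly all genes. The 3 were SLC7A11, CHAC1 and ALDH1L2, which lay so low in OPM1 controls that they could not have fallen there as far as in MM1S. The difference of DDIT3 was 0.60 and not called in that scaling, and those of ATF4 (-0.63), SESN2 (-0.05), CEBPB (-0.43) and SLC3A2 (-0.79) turned without being called. PSAT1 (difference 0.08 ± 0.21) and TRIB3 (0.07 ± 0.22) were not called different as deposited and were -1.90 with that scaling. CEBPG was not called different as deposited (0.49), but was when its probe sets were averaged (0.80), and was -1.48 with that scaling.

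The untreated lines differed in most of these genes. Of the 34 genes 18 were lower and 10 higher in OPM1-labelled than in MM1S controls, 28 in all, while 35.2% of all tested genes were lower and 28.6% higher, 63.7% in all. The medians were -0.42 and -0.05. Over 2-fold, 12 were lower and 9 higher, against 19.0% and 13.8% of all. The arrays of the lines did not overlap for 21 genes that were lower and 11 that were higher, as for 42.8% and 36.8% of all tested genes. SLC1A4 was 3298 and 2941 in MM1S and 151 and 140.2 in OPM1-labelled cells (log2 -4.15 ± 0.15). ALDH1L2 (log2 -2.89 ± 0.13), DDIT3 (-2.37 ± 0.18), SLC7A11 (-2.07 ± 0.15), SESN2 (-1.95 ± 0.16), CHAC1 (-1.94 ± 0.13) and PPP1R15A (-1.78 ± 0.14) were lower as well. Higher in OPM1-labelled cells were ATF5, at 901 and 827 against 95.8 and 83.8 (log2 2.88 ± 0.15), STC2 (2.75 ± 0.15), CBS (1.87 ± 0.13) and PCK2 (1.39 ± 0.15). Of these 11 genes PCK2 had the highest limma adjusted p, 3.8e-08. ATF4 itself was not called (log2 -0.23 ± 0.13, limma adjusted p = 0.114), but was without OPM1 control 2 (-0.35). CEBPG was not called either (log2 -0.22), but was called lower when its probe sets were averaged (-0.78). SLC7A1 was higher by its brightest probe set (log2 1.32 ± 0.16) and lower without shared probe sets (-0.59), so its direction between the lines is not settled. ASNS (log2 -0.42) and CEBPB (-0.42) were not called without MM1S control 1 (-0.27 and -0.21), and CEBPB was not called without OPM1 control 2 (-0.40).

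Upstream of ATF4 stand the eIF2 kinases, the eIF2 and eIF2B subunits and their regulators, of which 17 of 18 listed genes were tested. In MM1S 6 fell and 2 rose (median log2 -0.14), and in OPM1-labelled cells 11 fell and 3 rose (-0.45). Of all tested genes 21.1% fell and 16.4% rose in MM1S, and 38.5% fell and 25.4% rose in OPM1-labelled cells, and the next lists are read against the same shares. EIF2B3, a subunit of the exchange factor that eIF2 phosphorylation blocks, went from 452 and 386 to 99.9 and 99.8 in MM1S (log2 -1.77 ± 0.14) and from 968 and 1030 to 65.7 and 68.3 in OPM1-labelled cells (-3.38 ± 0.14). EIF2AK4, the amino acid sensing kinase GCN2, changed by -1.0 and -2.25 on the log2 scale, though its MM1S call was lost without shared probe sets (-0.17). Its activator GCN1 fell in both lines (log2 -0.41 and -2.06), as did the kinase inhibitor DNAJC3 (-0.84 and -1.55). The MM1S call of GCN1 was lost without MM1S control 1 (log2 -0.29), MM1S Zalypsis 1 (-0.46) or MM1S Zalypsis 2 (-0.37). EIF2AK3, the kinase PERK that senses unfolded protein, fell too (log2 -0.76 and -1.68), and is named after its values were seen. ATF3, a target of ATF4 and of other stress pathways, rose from 526 and 451 to 1264 and 1011 in MM1S (log2 1.16 ± 0.16) and from 56.7 and 41.2 to 1098 and 1097 in OPM1-labelled cells (3.81 ± 0.16, and 2.06 with the poly-A scaling). Its MM1S rise was not called without shared probe sets (log2 0.10), and that in OPM1-labelled cells was then 0.60.

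Enzymes of amino acid metabolism outside the 35 genes numbered 22, of which 17 were tested. In MM1S 5 fell and 2 rose (median log2 -0.15), and in OPM1-labelled cells 7 fell and 4 rose (-0.19), near the shares of all tested genes in that line (38.5% and 25.4%). ASS1, of arginine synthesis, fell from 430.4 and 317 to 89.6 and 80.4 in MM1S (log2 -1.78 ± 0.16), and it fell in OPM1-labelled cells as well (-1.29). GLDC, which cleaves glycine, fell in MM1S (log2 -1.70), where OAT, ornithine aminotransferase, rose (0.84). In OPM1-labelled cells BCAT1, which transaminates branched-chain amino acids, fell from 3887 and 3712 to 557 and 377 (log2 -2.96 ± 0.16), with GCSH of glycine cleavage (-1.73). ALDH18A1 of proline synthesis fell in both lines (log2 -0.48 and -1.80). Its MM1S call was lost without MM1S control 1 (log2 -0.33), MM1S Zalypsis 1 (-0.52) or MM1S Zalypsis 2 (-0.43). MTHFD1, the cytosolic folate enzyme, fell in both lines (log2 -0.83 and -2.91).

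Of 17 other amino acid transporters 15 were tested. In MM1S 5 fell and 1 rose (median log2 -0.05), and in OPM1-labelled cells 9 fell and 2 rose (-0.92), against the same 21.1% lower and 16.4% higher of all in MM1S, and 38.5% and 25.4% in OPM1-labelled cells. SLC38A1, a glutamine carrier, went from 2868 and 2677 to 1355 and 1146 in MM1S (log2 -1.13 ± 0.14) and from 2377 and 2140 to 243 and 229.7 in OPM1-labelled cells (-3.09 ± 0.14). SLC7A7 (log2 -0.71 and -1.11, with MM1S first) and SLC43A1 (-0.59 and -1.02) fell in both lines, and SLC1A1 (-2.05) and SLC38A5 (-1.55) fell in OPM1-labelled cells. SLC38A9, a lysosomal arginine sensor, fell in both (log2 -0.65 and -1.32). With the poly-A scaling 0 genes of the enzyme list and 0 of this list rose in OPM1-labelled cells, and 16 of each fell, against 93.0% of all tested genes.

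Gene length was compared with the responses as a property that the choice of genes did not use. The 34 genes span 2.11 to 86.3 kb in RefSeq's GRCh38.p14, with a median of 17.9 kb. The rank correlation of span and log2 change was -0.229 in MM1S and -0.253 in OPM1-labelled cells, a weak one over 34 genes that share their arrays. With log10 of the span, Pearson's r was -0.16 and -0.328. No such correlation was computed over all tested genes, so whether these genes differ from the rest was not tested. CHAC1, one of the deepest falls in MM1S, spans 3.04 kb, and SLC7A11 spans 78.3 kb.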

How the data were processed

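The deposited values are linear intensity per probe set, which the authors made with dChip, according to the design text of the series. Which dChip version, normalization and expression model were used is not given here. The labels' protocols state a start of 100 ng total RNA.

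Of 54675 probe sets, 62 were controls and 41091 carried 1 gene symbol in the platform annotation, which were used. The probe set with the highest mean of log2(value + 32) stood for a gene. The 40% of 19775 genes with the lowest mean were left out, which left 11865. A model of the 4 group means was fitted in limma 3.58.1 under R 4.3.3 (with an intensity trend, 4 residual degrees of freedom, prior 17.0) over all 8 arrays, and p-values adjusted by the Benjamini-Hochberg method over all tested genes of a comparison. The same steps were tested on simulated data.

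Members and lists were chosen with earlier results of these data known. All 35 genes could be named, and of each other list the 4 largest called changes in a line. For 3 enzyme genes no probe set with 1 symbol was matched, and they are not analysed here. Of the markers, 2 were not analysed for the same reason. Alternatives were the offset (8), quantile normalization, the mean of probe sets, no shared probe sets (names ending in _s_at, _x_at or _a_at), no filter on dim genes, a replicate block, a fit on the compared groups, leaving out each array, the design text's rule of a change over 2-fold, and scaling of OPM1 arrays by 4 poly-A controls.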

Additional observations from a re-analysis of the deposited data

Results flagged for a closer look

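The response to Zalypsis differed between the lines for 18 of the 34 tested genes by the interaction test, with values as OPM1-labelled minus MM1S on the log2 scale. Higher in OPM1-labelled cells were the responses of the regulators ATF4 (1.46), CEBPB (1.62), DDIT3 (1.94) and PPP1R15A (0.91). The transporters SLC7A11 (2.73), SLC3A2 (1.25) and SLC38A2 (0.55), the enzymes CHAC1 (2.58), ALDH1L2 (1.63) and MTHFD2 (0.58), and SESN2 (1.90) followed. Lower were those of ATF5 (-0.91), JDP2 (-0.54), SLC7A1 (-1.43), SLC1A4 (-0.86), CBS (-0.65), DDIT4 (-0.54) and STC2 (-1.82). ALDH1L2 lay below the dimmest tested signal in OPM1-labelled cells and STC2 in MM1S, so that these differences restate the change in the other line. CHAC1 and SLC7A11 started lower in OPM1 controls (mean signals 64.4 and 99.3) than in MM1S controls (337 and 524). With the poly-A scaling, which left the MM1S arrays as deposited, ATF4 (-0.63), CEBPB (-0.43), PPP1R15A (-0.79), SESN2 (-0.05) and SLC3A2 (-0.79) turned without a call. MTHFD2 (-1.51) and SLC38A2 (-1.52) were then called the other way, and DDIT3 (0.60) was not called. With probe sets averaged SLC1A4 (-0.20), ATF5 (-0.41), MTHFD2 (0.24), SLC38A2 (0.48) and JDP2 (-0.26) were not called, and without shared probe sets SLC1A4 was 0.40. After quantile normalization DDIT4 (-0.24) and JDP2 (-0.41) were not called. JDP2 was not called with an offset of 8 (-0.30), and neither JDP2 nor DDIT4 was called when dim genes were tested too. The calls of SLC38A2, DDIT4, JDP2 and MTHFD2 were lost when some single arrays were left out. The differences ranged from 0.38 to 0.53 for SLC38A2, from -0.36 to -0.60 for DDIT4 and from -0.36 to -0.51 for JDP2 where the call was lost, and MTHFD2 was 0.49 without OPM1 Zalypsis 2.

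The poly-A controls, which no comparison uses as deposited, had a geometric mean of 1862 on OPM1 Zalypsis 1 and 1349 on OPM1 Zalypsis 2, above the 299.7 and 448 of the OPM1 controls. Groups of 2 arrays are too small for a test of outlying arrays.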

How the results depend on the processing

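By the rule of over 2-fold, the 34 genes counted 0 higher and 11 lower in MM1S, 4 and 7 in OPM1-labelled cells, and 4 with a lower response in OPM1-labelled cells. With each array left out in turn, 1 to 2 were called higher and 15 to 22 lower in MM1S, with 1 higher without MM1S control 2 or MM1S Zalypsis 1. The ranges were 6 to 7 and 14 to 15 in OPM1-labelled cells, 9 to 15 and 5 to 7 for the difference, and 10 to 11 and 16 to 18 between the untreated lines. After quantile normalization 18 differed upwards between the responses, and PSPH turned to 0.29 in OPM1-labelled cells. With probe sets averaged 4 differed downwards, as did 4 of 21 without shared probe sets, where SLC1A4 turned to 0.40. There the untreated lines counted 6 higher and 11 lower, with SLC7A1 at -0.59 and KLHL24 at 0.06, and KLHL24 was -0.98 in OPM1-labelled cells. Scaling by the poly-A controls gave 0 higher and 30 lower in OPM1-labelled cells and reversed ASNS (-1.98), SLC3A2 (-0.94), MTHFD2 (-2.03), CTH (-1.30), CEBPB (-1.61), CEBPG (-1.52), SESN2 (-0.47), NUPR1 (-0.72), SLC1A5 (-2.00), SLC38A2 (-2.06), PPP1R15A (-0.31) and KLHL24 (-1.27). For the difference, with the MM1S arrays left unscaled, it gave 3 higher, 25 lower and a median of -1.58 (-1.73 for all tested genes). It reversed ATF4 (-0.63), ASNS (-1.56), SLC7A5 (-1.59), SLC3A2 (-0.79), PSAT1 (-1.90), PHGDH (-1.88), PSPH (-1.86), SHMT2 (-1.97), MTHFD2 (-1.51), CEBPB (-0.43), CEBPG (-1.48), TRIB3 (-1.90), SESN2 (-0.05), NUPR1 (-0.67), VLDLR (-0.83), SLC1A5 (-1.66), SLC38A2 (-1.52), PYCR1 (-1.53) and PPP1R15A (-0.79). The cause of these changes was not tested. Over all tested genes, OPM1-labelled cells then had 62 higher and 11029 lower, and 4641 higher after quantile normalization. Same-numbered arrays share only a number: their deviations correlated at 0.212 in MM1S, 0.209 in OPM1-labelled cells and -0.125 between the untreated lines. A replicate block gave 3 higher and 24 lower in MM1S, 7 and 15 in OPM1-labelled cells, 15 and 7 for the difference and 10 and 18 between the untreated lines. Crossed numbers, tried after seeing the data, gave 11 and 19 there. An offset of 8, no filter on dim genes and a fit of the compared groups alone kept every count of these genes within 1.5 times. Signals near 27.3 or below limit what can be said of ALDH1L2, CHAC1 and SLC7A11. The same holds for STC2 and JDP2 in MM1S, for SLC1A4, DDIT3 and VLDLR in OPM1-labelled cells, and for NUPR1 in both lines.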
